A study of Mus musculus with 12 samples.

Results

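Tumours grown from 4T1, a mouse line that models triple-negative breast cancer, held a small class of leukocytes that the submitters annotated as other myeloid and set apart from macrophages. The class was taken as every cell with the broader annotation Other Myeloid in the 6 CD45 libraries, except cells whose finer annotation was NK. This rule gave 2218 of the 54955 cells in these libraries, and of the 115612 cells in all 12 libraries. After 33 cells called doublets were left out, 2185 cells remained, beside 23877 cells annotated as macrophages and 53589 CD45 cells of all kinds.

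The tumours were grown in the mammary fat pad of female BALB/c mice of 9 to 11 weeks of age, an immunocompetent host of the strain from which 4T1 derives. They came from 5 populations of 4T1, each grown out of 1 cell (clones E, EM1, EM2 and EM3, and clone M), and from the uncloned parental line. The design text describes the clones as epithelial, intermediate and mesenchymal but does not tie each name to a state. Each of the 6 groups is 1 tumour, measured as a Total library of all cells and as a CD45 library of leukocytes, enriched by magnetic sorting for the CD45 antigen they carry. A clone is thus seen in 1 mouse, and no spread between mice of a group could be had. The classes compared within a tumour come from an annotation of the same cells. For both reasons no test was made. All intervals are exact 95% intervals of counting error. Values in the order of the tumours are those of E, EM1, EM2, EM3, M and Parental.

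Monocytes are made in the bone marrow, enter a tumour from the blood and there turn into macrophages. Mouse classical monocytes carry Ly6c2, a surface antigen, Ccr2, the receptor that draws them to Ccl2, and Plac8. Macrophages lose these and gain C1q complement, Apoe, Mrc1 and Adgre1 (F4/80). Numbers of tumour macrophages are fed both by monocytes that arrive and by division of cells already there. Division leaves a clear mark in RNA: genes for DNA synthesis and histones are transcribed in S phase, and those of the mitotic machinery in G2 and M phase. Osteoclasts, the bone-resorbing cells of the same lineage, form under Csf1 and Rankl and are known for Ctsk and Acp5.

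The CD45 libraries held between 28083101 and 57116299 UMIs (molecular tags that count RNA molecules rather than reads) in 6791 to 11024 cells. The largest number of UMIs in any cell was between 12237 in Parental and 33090 in EM2, so the deepest cells of each library end at a different depth. The barcodes of the cells were 24 bases long, and whole barcodes were shared by 0 to 161 cells between any pair of CD45 libraries. By their first 16 bases, 14 pairs of libraries shared 818 to 1760 barcodes and the other 52 pairs shared 46 to 211. The sharing libraries were both libraries of E with both of EM3, both of EM1 with both of EM2, and the 2 libraries of M and of Parental each with their partner. The part of this sharing in differences between tumours was not tested.

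In the order of the tumours, other myeloid cells made up 3.36% (3.03 to 3.72), 4.21% (3.81 to 4.64), 4.29% (3.88 to 4.73), 4.65% (4.26 to 5.06), 3.55% (3.14 to 3.99) and 4.43% (3.95 to 4.95) of the CD45 cells. The interval of E lay below those of EM1, EM2, EM3 and Parental, and that of M below that of EM3. Of macrophages and other myeloid cells together, they were 6.54%, 10.5%, 7.76%, 9.04%, 9.56% and 7.90% in the order of the tumours, where E was again the lowest. EM1 was the highest on that scale, and EM3 on the former. Of CD45 cells other than granulocytes, M was the highest, at 7.20% (6.38 to 8.08), and EM3 had 6.42% (5.88 to 6.99). E was the lowest there too, at 4.44% (4.00 to 4.91), but its interval overlapped those of EM1 and EM2. The order of M and EM3 thus depends on the cells taken as the total.

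The label was checked against the 3 markers given for it, and these did not lead. Ly6c2 had 50.1, 23.2, 66.1, 21.1, 21.5 and 21.7 CPM (UMIs of the gene scaled to 1000000 UMIs of its class) in other myeloid cells and 171, 28.2, 73, 32.7, 20.1 and 27 in macrophages. It was the lower of the pair in every tumour but M, in all 6 with each cell counted equally, and in 3 of 6 among cells under 2000 UMIs. Only 94 of the 2185 cells (4.30%) held any UMI of Ly6c2, and 77.9% of its 616 UMIs lay in a cluster of 54 cells described below. Plac8 had a UMI in 338 cells (15.5%) with 34.6% of its UMIs in that cluster, and Ccr2 in 937 cells (42.9%) with 4.62%. Plac8 had 158, 56.9, 129, 53.5, 36.4 and 48.6 CPM in other myeloid cells against 411, 153, 260, 189, 123 and 145 in macrophages, with log2 ratios of -1.65 to -0.95. Ccr2 was slightly higher in other myeloid cells in each tumour, with 163, 145, 141, 187, 105 and 136 CPM against 139, 101, 111, 154, 91.2 and 125, but in 5 of 6 tumours with each cell counted equally and in 1 of 6 among cells under 2000 UMIs. All log2 ratios are of (CPM + 10) in other myeloid cells over macrophages of the same tumour, from counts summed over the cells of each class.

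The marker lists gave the same picture for most of these cells. The classical monocyte markers summed to 498 to 919 CPM in other myeloid cells and 627 to 1565 in macrophages, and of the 3 members with at least 50 CPM in the higher class of every tumour, Ccr2 was higher and Plac8 and F13a1 were lower in all 6 tumours, F13a1 in only 2 of 6 with each cell counted equally. The macrophage markers summed to 34315 to 47824 CPM, against 37896 to 57249 in macrophages, and the sum was the lower of the pair in each tumour. Of the 12 members at that minimum level, 0 were higher and 5 lower in all 6 tumours from summed counts. Of all genes at that level, 38.1% were higher and 22.1% lower in all 6. C1qa, a chain of the C1q complement protein, had 4731, 6958, 6373, 5173, 6463 and 4544 CPM against 3579, 6495, 6057, 4284, 5571 and 5004 in macrophages. Adgre1 had 133, 211, 208, 160, 224 and 133 CPM against 141, 243, 256, 163, 220 and 183, and Csf1r, the receptor of the macrophage growth factor, had 1133 and 1124 CPM in the pooled cells of the classes, leaving out the Ctsk-rich cells described below. The submitters' SingleR labels, which compare each cell with the ImmGen reference, called 2142 of the 2185 cells (98.0%) macrophages and 32 monocytes, whereas among the cells annotated as macrophages 92.2% were called macrophages and 6.69% monocytes.

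Markers of several other lineages were low as summed lists, but those of granulocytes and osteoclast-type cells were not low in every tumour. T cell markers summed to 13.2 to 48.1 CPM and B cell markers to 4.95 to 33.0, NK markers to 0.517 to 9.93, mast cell and basophil markers to 0.65 to 3.58, eosinophil markers to 3.04 to 10.5, fibroblast markers to 1.10 to 3.25 and erythroid markers to 0 to 1.03. Dendritic cell markers summed to 47.4 to 113 and tumour epithelial markers to 5.2 to 52.8. Macrophages had 19.2 to 57.0 CPM of the T cell list and 6.12 to 44.3 of the tumour list. Granulocyte markers summed to 559 to 2882 CPM against 901 to 1829 in macrophages. They were higher in M, at 2882 against 1148, and in EM2, at 1105 against 901, and lower in the other tumours. The cluster of 54 cells described below had 6634 CPM of S100a8, against 128 to 1052 in the other clusters of the class. It held 17 cells of M and 16 of EM2, and 4 to 7 of each other tumour. Whether these cells, free RNA or attached cells had a part in this was not tested. Progenitor markers summed to 21.3 to 97.5 CPM against 6.82 to 31.6 and were higher than in macrophages in every tumour but EM3, at 29.5 against 31.6. Osteoclast-type markers summed to 352 to 8196 against 237 to 510 and were higher in every tumour but M, at 352 against 453. Markers of patrolling monocytes summed to 454 to 786 CPM against 360 to 674. Of the markers given for the label, Plac8 thus went against it, Ly6c2 was found in few cells, and Ccr2 did not go against it, and below the cells are called by their annotation or by the genes that lead them.

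In summed counts, what set the class apart from macrophages was cell division. Such counts weight deep cells most. Outside the Ctsk-rich cells described below, 685 cells under 2000 UMIs held 682998 UMIs and 1421 deeper cells held 15166685. Of 3723 genes with at least 50 CPM in the higher class of every tumour (called tested below, for this level and not for any statistical test), 102 (2.74%) had a log2 ratio of at least 1 in all 6 tumours, and 2 (0.0537%) had one of -1 or less. Across all these genes the median ratio was 0.06. The 12 genes with the highest median ratio were Hist1h2ap, Hist1h2ae, Hist1h1b, Hist1h2bn, Top2a, Hist1h1a, Rrm2, Hist1h1e, Ube2c, Mki67, Cdca3 and Birc5, of which 6 are replication-dependent histones. The annotation was made from the same cells, so these ratios describe the class and are no test of it.

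Promoters of cell-division genes are shown here because these genes differed together. The list was matched to promoters from RefSeq (build GRCm38.p6, which the mm10 coordinates share), each of 300 bases, from 250 before to 50 after a start. Below are the 110 bases before the outermost annotated start of 3 of these genes, 5′ to 3′ on the strand of the gene. Capitals mark CCAAT boxes and the motif TTTGAA, each on either strand, the latter known as the cell cycle genes homology region, CHR.
Top2a, chr11:99024190-99024299, minus strand: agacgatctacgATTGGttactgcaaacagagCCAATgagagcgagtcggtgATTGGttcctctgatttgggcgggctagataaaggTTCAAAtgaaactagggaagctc
Cdk1, chr10:69352939-69353048, minus strand: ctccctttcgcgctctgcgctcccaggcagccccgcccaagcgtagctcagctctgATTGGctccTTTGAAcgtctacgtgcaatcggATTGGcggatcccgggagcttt
Ccnb2, chr9:70421555-70421664, minus strand: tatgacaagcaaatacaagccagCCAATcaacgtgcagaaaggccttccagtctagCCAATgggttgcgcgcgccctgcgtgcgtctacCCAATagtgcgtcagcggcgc

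The Top2a stretch held 3 CCAAT boxes and 1 TTTGAA, that of Cdk1 held 2 and 1, and that of Ccnb2 held 3 and 0. These 3 were chosen for their matches from 8 stretches searched. Of the others, Mcm5 and Ube2c held 2 CCAAT boxes and Rrm2 held 1, all with no TTTGAA, Mki67 held 1 TTTGAA and no CCAAT box, and Birc5 held neither. Promoters could be matched for 76 of the 102 genes. Among these, 43 (56.6%) held CCAAT on either strand in a window and 27 (35.5%) held TTTGAA, against 42.0% and 17.3% of all 14527 measured genes with a promoter. The E2F-type letters GGCGGGAA were in 7 (9.21%) against 3.59%. CCAAT and TTTGAA do not overlap each other. The motifs and genes were chosen after the gene list was seen, and a match of letters is a description and not a site of binding.

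Histone genes led the list. Histones package newly made DNA, and those of the replication-dependent clusters are made in S phase. Hist1h2ap, an H2A histone, had 529, 1009, 1177, 701, 1248 and 940 CPM in other myeloid cells and 14.3, 13.4, 13, 13.9, 19.7 and 25 in macrophages, a log2 ratio of 4.47 to 5.69. The lowest other myeloid value, in E, lay far above the highest macrophage value, in Parental, in a gene named for its large ratio. Hist1h1e, a linker histone, was the histone with the highest level in macrophages among those tested, at 96.2, 52.3, 73.8, 96.5, 65.9 and 79 CPM, and had 831, 1236, 1272, 987, 1280 and 1017 in other myeloid cells. Of 34 measured histone genes, 6 passed the minimum level, and these 6 were among the 102. As the CPM minimum was reached through the other myeloid cells alone for most of them, that count carries no weight of its own.

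DNA synthesis genes followed. Rrm2, the small subunit of ribonucleotide reductase, which makes DNA building blocks, had 172, 235, 225, 181, 279 and 149 CPM against 4.27, 3.57, 4.21, 4.56, 7.03 and 4.9 in macrophages. The replicative helicase subunits Mcm2, Mcm3, Mcm5, Mcm6 and Mcm7, but not Mcm4, were among the 102, with median log2 ratios of 1.90, 2.50, 2.04, 1.98 and 2.42. So were Tyms, Dut and Tk1, enzymes of thymidine nucleotide synthesis, at 2.19, 2.14 and 2.87, and Pcna, the sliding clamp of DNA polymerase, at 1.31. Uhrf1, which carries DNA methylation through replication, had a median of 2.81. Mcm4 was called only when the Ctsk-rich cells described below were left out. Its median log2 ratio was then 1.14, with median levels of 97.7 CPM against 38.7 in macrophages.

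Several mitotic genes were higher too, to different degrees, with a median log2 ratio of 4.57 for Top2a and 2.54 for Ccnb2. Whether they differed by as much as the DNA synthesis genes was not tested. Top2a, the topoisomerase that untangles chromosomes, had 347, 593, 495, 409, 511 and 367 CPM in other myeloid cells and 8.28, 9.9, 9.84, 9, 10 and 10.1 in macrophages, and its lowest other myeloid value, in E, was 347 CPM (328 to 366). Mki67, the gene of the Ki-67 proliferation antigen, had 181, 401, 417, 270, 427 and 296 CPM against 7.53, 23.1, 16.6, 13, 18.4 and 17.1. Ube2c, which drives the degradation of mitotic cyclins, had 161, 211, 195, 137, 200 and 157 CPM against 4.36, 3.57, 2.94, 3.33, 4.13 and 5.4, and Birc5 (survivin) 109, 183, 165, 130, 201 and 139 against 3.29, 3.84, 2.7, 4.07, 5.45 and 5.35. The classes did not overlap for Top2a, Mki67, Ube2c or Birc5, but these were named for their large ratios, so this carries no weight of its own. Of the 12 members of the cell-division list, 10 passed the minimum level, each through its level in other myeloid cells only. All 10 were called, against 2.74% of all tested genes, but that count thus carries no weight of its own. The other 2 were Cenpf, a kinetochore protein, at 11.6, 31.1, 24.9, 19.2, 28 and 19.6 CPM against 0.721, 0.649, 0.694, 0.539, 0.866 and 0.726, and Ccnb1, a mitotic cyclin, at 1.65, 4.17, 2.9, 1.8, 4.55 and 2.07 against 0.433, 0.216, 0.408, 0.245, 0.357 and 0.227.

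**Figure D1:**
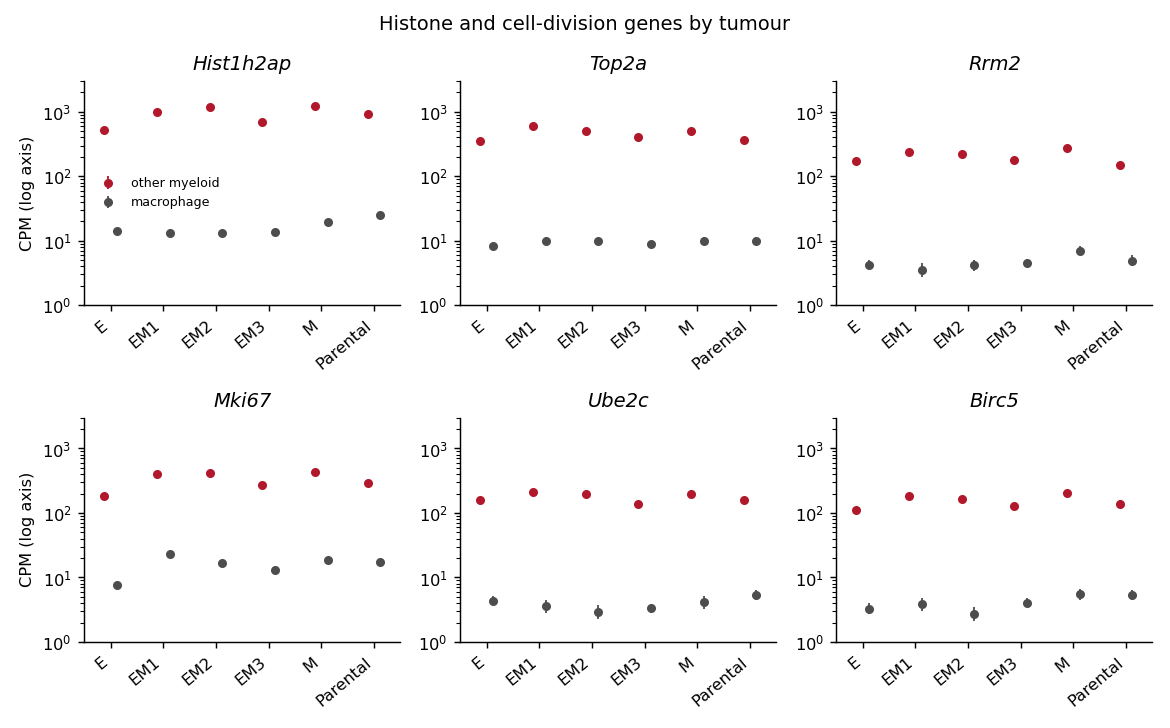
Level of 6 histone and cell-division genes in CPM (log axis) by tumour, in other myeloid cells (red) and macrophages (grey) of the CD45 libraries, with exact 95% Poisson intervals of counting error. In every panel the 6 red points lie above the 6 grey ones, for Top2a at 347 to 593 CPM against 8.28 to 10.1. The genes were named for their large ratios.

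E was the lowest of the 6 tumours for Hist1h2ap, Top2a, Mki67 and Birc5 in other myeloid cells, and M or EM1 the highest, while Rrm2 was lowest in Parental and Ube2c in EM3. The summed cell-division list had 1409, 2403, 2236, 1716, 2434 and 1720 CPM in other myeloid cells and 61.4, 92.2, 77.7, 82.2, 103 and 98.0 in macrophages, so both classes were lowest in E and highest in M.

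Counted per cell, division genes were frequent in the class. At 1000 UMIs per cell the list gives few UMIs, so the shares below cannot count the cells without division. After every cell was thinned to 1000 UMIs, leaving out 33 to 107 shallower other myeloid cells and 12 to 31 macrophages per tumour, 34.0% (28.7 to 39.6), 55.9% (50.1 to 61.5), 53.6% (48.2 to 58.9), 32.6% (27.9 to 37.5), 44.7% (37.9 to 51.6) and 41.3% (35.0 to 47.8) of the other myeloid cells held at least 2 UMIs of the list, in the order of the tumours. In macrophages the share was 0.415% to 0.965%, and in granulocytes, which do not divide once mature, 0% to 0.838%. It was 3.22% to 10.7% in T cells, 2.44% to 8.85% in B cells and 1.58% to 5.54% in dendritic cells. In cells annotated as T and myeloid hybrids it was 0% to 12.5%. Among other myeloid cells, EM1 and EM2 thus lay above E and EM3 with intervals that did not overlap. These are also the pairs whose libraries shared droplet barcodes, and the tumours cannot be told apart from that. Without thinning, the shares were 75.3%, 70.8%, 82.7%, 52.3%, 59.2% and 65.1% in other myeloid cells and 7.18% to 15.9% in macrophages, at median depths of 2320 to 10930 and 5128 to 7667 UMIs. Of all thinned cells of both classes that passed, other myeloid cells held 83.1%, 89.5%, 87.8%, 77.9%, 81.4% and 75.0%.

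A like measure, from a separate random thinning, could be set beside the Total libraries, whose annotation has no other myeloid class. There the cells annotated as macrophages were compared with macrophages and other myeloid cells of the CD45 library. In the CD45 libraries 2.16%, 5.32%, 4.51%, 3.18%, 4.65% and 3.5% of the thinned cells held 2 UMIs, and in the Total libraries 2.71%, 5.67%, 5.24%, 5.59%, 8.84% and 9.98%. E had the lowest share in both kinds of library. EM3, M and Parental were higher in the Total library, with intervals that did not overlap those of the CD45 library (for Parental 8.84 to 11.2 against 2.93 to 4.14). The deepest cells of their CD45 libraries had 20676, 15667 and 12237 UMIs. Of the other myeloid cells, 20.4% in M had 12589 to 15849 UMIs, and 31.5% in Parental had 10000 to 12589. The part of this upper end of depth in the gap was not tested. In both kinds of library the cells were those not called doublets.

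Macrophage effector genes differed less and mostly in the other direction. Of all genes tested, 38.1% were higher and 22.1% lower in all 6 tumours, which is the background for the counts that follow. Only 2 genes were lower past the fold limit. Inhba, a chain of the growth factor activin A, had 1110, 64.1, 84.1, 233, 2.6 and 21.7 CPM in other myeloid cells against 2373, 291, 328, 883, 120 and 325, with log2 ratios of -3.40 to -1.09. F10, coagulation factor X, had 166, 34.5, 101, 172, 66.3 and 134 against 538, 96.4, 219, 418, 218 and 361. When each cell instead counted equally (the mean over cells of its CPM), 13 of 3696 genes (0.352%) were lower past the limit and 76 (2.06%) higher. The 13 were Inhba, Cxcl3, Slpi, Plac8, Thbs1, F10, Cxcl1, Sdc1, Ptgs2, Chst11, Cxcl2, Btg1 and Clec4d.

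The Arg1 and hypoxia list had 9 tested members, of which 6 were lower in all 6 tumours and none higher, with a median log2 ratio of -0.54. Thbs1, the matrix protein thrombospondin-1, had 2329, 1185, 2448, 3866, 642 and 1119 CPM against 6068, 2482, 4684, 9122, 3615 and 4992. The gap was widest in M and Parental, at log2 ratios of -2.47 and -2.15. Arg1, the enzyme that depletes arginine, had 2827, 895, 1094, 2855, 619 and 1047 CPM against 3854, 1301, 1593, 4044, 1645 and 2574, and Vegfa, which drives vessel growth, 1213, 775, 653, 1053, 482 and 661 against 1696, 1222, 1249, 1597, 1066 and 1209. Spp1 (osteopontin) did not share this pattern, with 3320, 1011, 1572, 2137, 2472 and 4256 CPM against 2920, 799, 1642, 2019, 2465 and 5070, higher in some tumours and lower in others.

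Several cytokines and chemokines were lower. All 6 tumours had less Cxcl3, Cxcl2 and Cxcl1, ligands of the neutrophil receptor Cxcr2, also among cells under 2000 UMIs. Cxcl3 had 774, 254, 264, 407, 109 and 416 CPM against 1448, 512, 761, 1495, 544 and 1308. Il1b, the interleukin-1 beta gene, had 5309, 3358, 2402, 3072, 814 and 2204 against 6568, 4376, 4071, 5292, 1680 and 3404. Of the 5 tested inflammatory cytokines 4 were lower in all 6 tumours, and of the 11 tested chemokines 5 were. Ccl12, a ligand of Ccr2, was the 1 chemokine higher in all 6, at 98.5, 311, 172, 266, 402 and 145 CPM against 60.6, 114, 82.9, 112, 134 and 96.6. Il6 and Il10 did not reach the minimum level in every tumour and were also the lower of the pair in each, Il10 in 5 of 6 after thinning. Of 4 tested chemokine receptors 3 were lower in all 6, Ccr1 and Cxcr4 among them, and Ccr2 was higher.

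**Figure D2:**
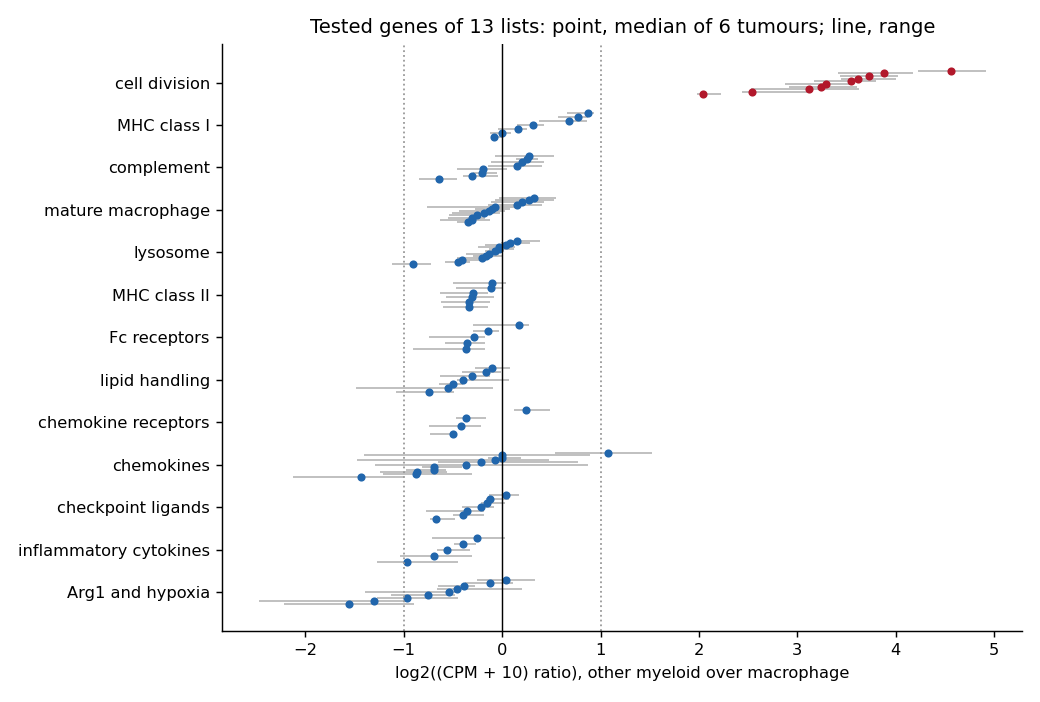
Median log2((CPM + 10) ratio) of other myeloid cells over macrophages over 6 tumours (points) with the range over tumours (lines) for the tested genes of each list, 1 row of points per gene. Dotted lines mark ratios of 1 and -1; the cell-division genes lie between 2 and 5 and nearly all other listed genes within 1 of 0.

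From summed counts, most antigen presentation genes of class II were lower and some of class I were higher. The MHC class II genes, which present antigen to CD4 T cells, were lower in other myeloid cells: 5 of 6 tested were lower in all 6 tumours. H2-Aa had 7438, 8201, 5888, 6079, 2899 and 2136 CPM against 8979, 10891, 8908, 6708, 3271 and 2972, a small shift beside the gap of both classes between EM1 and Parental. With each cell counted equally H2-Aa, H2-Ab1, H2-Eb1 and Cd74 were each lower in 3 tumours and higher in 3, so the direction of this list holds only for summed counts. Of the 7 tested class I genes, 4 were higher in all 6 tumours and none lower, against 38.1% and 22.1% of all tested genes. These were the proteasome subunits Psmb9 (356, 432, 366, 305, 177 and 172 CPM against 187, 222, 187, 165, 97.8 and 105) and Psmb8, and the peptide transporter genes Tap1 (265, 258, 218, 204, 101 and 71.3 against 153, 149, 115, 115, 51 and 45) and Tap2. H2-K1, H2-D1 and B2m, the presenting molecule itself, had median ratios of 0.16, -0.08 and -0.01. Those of Psmb8, Psmb9, Tap1 and Tap2 were above 0 in all 6 tumours with each cell counted equally too, and among cells under 2000 UMIs in 5 of 6, or 6 of 6 for Psmb9.

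For other macrophage functions, several genes of the lists below were lower from summed counts, but none past the fold limit in all 6 tumours. Of 12 lysosome genes, 1 was higher and 5 were lower in all 6 tumours, with Ctsl, a protease, the lowest at 903, 576, 882, 1019, 989 and 1100 CPM against 1948, 1075, 1523, 1694, 2164 and 2092. Of 7 tested lipid genes 5 were lower in each tumour, among them the cholesterol exporter Abca1 (693, 628, 606, 535, 554 and 474 CPM against 975, 1030, 1054, 866, 1047 and 1010) and the lipid droplet protein Plin2. Apoe had 26928, 28380, 22354, 22104, 28232 and 21043 CPM against 30351, 38370, 33204, 24127, 30907 and 32499, lower in all 6 tumours from summed counts, but with cells counted equally higher in 3. Of 5 Fc receptor genes, which bind antibody, 4 were lower in all 6 from summed counts, but these were higher in 1 to 3 tumours with each cell counted equally and in 5 or 6 among cells under 2000 UMIs. Of 7 tested checkpoint ligands 4 were, with Cd274 (PD-L1) at 396, 196, 182, 233, 63.7 and 101 CPM against 555, 290, 294, 394, 109 and 172. Of the 8 complement genes C3, C3ar1 and C5ar1 were lower and Cfp (properdin) higher in all 6, Cfp in 5 of 6 with each cell counted equally.

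Interferon genes gave no common direction for most members. Of 5 tested type I response genes, Rsad2 and Oasl1 were lower in all 6 tumours, Rsad2 in 4 of 6 with each cell counted equally. Cxcl10, a chemokine for T cells, was under that minimum in some tumours and had 22.3, 181, 121, 12.3, 100 and 17.6 CPM against 9.4, 64.2, 28.3, 14.5, 30.5 and 6.35, higher in all tumours but EM3, and in all 6 after thinning or with each cell counted equally. Of 14 tested transcription factors 3 were lower in all 6, among them Zeb2 (825, 747, 831, 739, 740 and 673 CPM against 1329, 1072, 1212, 1209, 1124 and 1060) and Irf5. Nr4a1 was higher in all 6 from summed counts, in 3 with each cell counted equally and in 0 among cells under 2000 UMIs. Of adhesion genes, Itgam, Itgb2 and Cd44 were lower and Selplg, a selectin ligand, higher in all 6, Selplg in 3 of 6 among cells under 2000 UMIs. In the iron list Hmox1 and Fth1 were lower in each tumour, and Cd163, a haemoglobin receptor, had 6.05, 33.4, 24.6, 45.4, 55.3 and 16 CPM against 26.4, 56, 46.8, 87.1, 165 and 56.5, higher in 4 of 6 with each cell counted equally. Ribosomal protein genes of the list were not analysed here.

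Depth split the class into 2 parts. Other myeloid cells had a median of 10930, 7606, 9316, 2320, 3150 and 7775 UMIs in the order of the tumours, against 6015, 5454, 5128, 7563, 7667 and 6375 in macrophages. Behind these medians lay a group of cells deeper than most macrophages and a group under 2000 UMIs, a limit set after the distribution was seen. Under it were 23.9%, 31.0%, 12.3% (9.18 to 16), 47.3% (42.8 to 51.8), 42.6% and 30.2% of other myeloid cells in the order of the tumours, against 2.64% to 5.64% of macrophages.

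**Figure D3:**
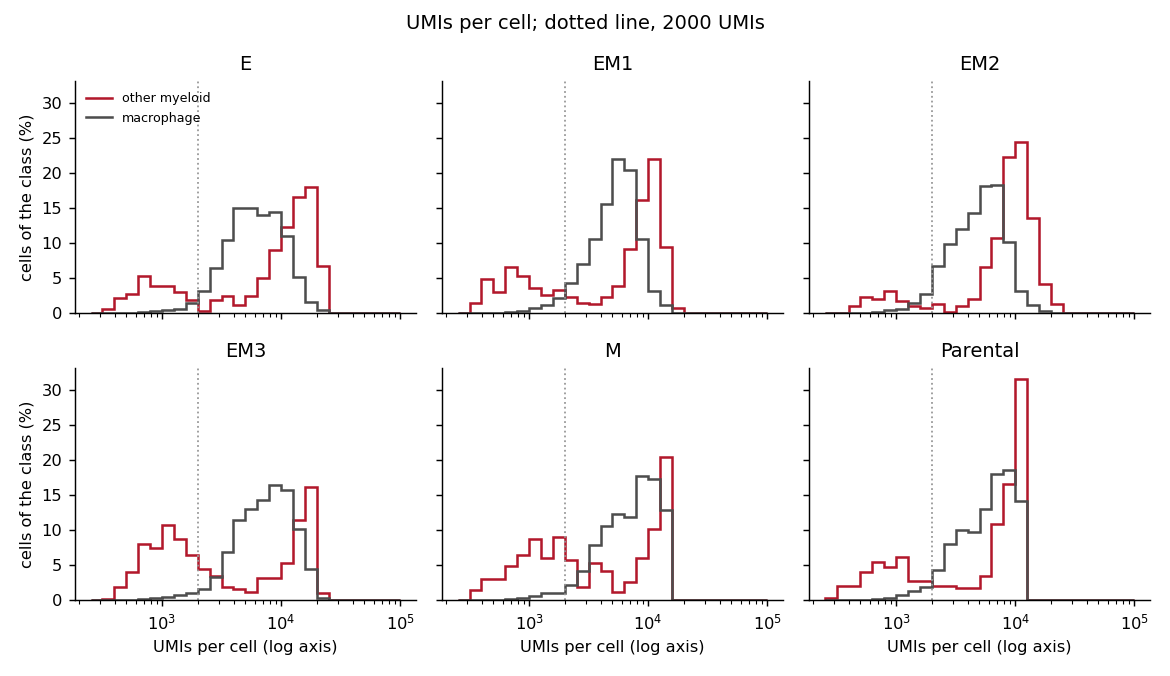
Share of cells of each class (vertical axis, percent) by UMIs per cell (log axis) in the 6 CD45 libraries, other myeloid in red and macrophages in grey, with a dotted line at 2000 UMIs. Of the other myeloid cells 12.3% (EM2) to 47.3% (EM3) lie left of the line, against 2.64% to 5.64% of macrophages.

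Both groups of cells had more division genes than macrophages on the same side of the limit, though depths per cell still differed there, higher than in macrophages for the deep cells and lower for the shallow ones. Of the other myeloid cells of at least 2000 UMIs, 94.8%, 94.4%, 92.8%, 84.7%, 86.2% and 83.0% held at least 2 UMIs of the cell-division list, against 7.35% to 16.3% of such macrophages. Under 2000 UMIs the shares were 12.9%, 18.2%, 10.6%, 16.2%, 23.0% and 23.6%, against 1.17% to 2.44%. Top2a had log2 ratios of 4.25 to 4.97 among the deep cells and of 2.05 to 4.52 among the shallow ones. Hist1h2ap had 4.51 to 5.72 and 1.11 to 3.10.

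Beyond division, far more genes were lower in the shallow cells, set against shallow macrophages, than in the deep ones. Among the shallow cells 42 of 3374 genes (1.24%) were higher past the limit in all 6 tumours and 109 (3.23%) lower. Among the deep cells these were 103 (2.77%) and 1 (0.0269%) of 3715. Of the 42, 8 were among the 102 of the whole class. In the shallow cells C1qa had a median of 7520 CPM over the tumours against 2398 in shallow macrophages, Ccl12 714 against 74.8, Selenop, which carries selenium, 2582 against 1010, and Gas6, a ligand of the receptors that recognise dying cells, 400 against 106. Shallow macrophages differed from deep ones in some of these genes. In pooled macrophages C1qa had 2210 CPM in shallow and 4938 in deep cells, and Selenop 933 and 1458. These gaps are thus not gaps to macrophages at large.

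The genes lower in the shallow cells were headed by Cxcl3 (139 CPM against 1317), the heat-shock gene Hspa1a (66.3 against 926), Inhba, and Thbs1 (871 against 6646). Also among the 109 were a second heat-shock gene, Hspa1b (79.0 against 924), and Jun (163 against 771), Dusp1 (160 against 811), Ier5 (62.5 against 329) and Ptgs2 (127 against 835), genes that cells switch on soon after a stimulus. The pooled shallow cells outside the Ctsk-rich group numbered 685 with 682998 UMIs, and the shallow macrophages 940 with 1387641, so the latter were deeper per cell. The part of depth and of free RNA in these differences was not tested. The median mitochondrial share of UMIs was 0.228% to 0.437% in the class and 0.133% to 0.407% in macrophages.

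Clustering of the 2185 cells alone gave 6 clusters, which describe how the class is made up. Cluster sizes are not compared between tumours, because genes that define the clusters differ between tumours. The largest, 769 cells with a median of 1017 UMIs, held 652 of the cells under 2000 UMIs and was led by Ccl12, Ccl8 and Gas6, with 8787 CPM of C1qa. Of its cells 19.9% held 2 UMIs of the cell-division list, a share that shallow depth limits, and the list summed to 908 CPM. It stays without a name.

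The next 3 clusters were deeper, with medians of 10712 to 11828 UMIs, and 97.3% to 98.3% of their cells held 2 division UMIs. Their summed cell-division list had 2364, 1361 and 2653 CPM in the order below, and they differed in macrophage genes. One of 515 cells was led by Cxcl10, Cxcl9 and MHC class II, with 8515 CPM of H2-Aa and 484 of Cxcl9. One of 422 cells was led by Inhba and Areg, with 2910 CPM of Arg1, 4434 of Thbs1 and 4099 of C1qa. One of 330 cells was led by Ccl7, Fcrls and Folr2, with 1387 CPM of Fcrls, 301 of Folr2 and only 383 of H2-Aa. Cells with division genes were thus found with several macrophage gene sets. The tumours were unequal in these clusters. EM1 and EM2 gave 192 and 159 of the 515 cells, E gave 190 of the 422 and Parental 94 of the 330. The part of the tumour in these gene sets was not tested.

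A cluster of 54 cells was led by Ly6c2, Ngp and Ly6c1, and 90.7% of its cells held 2 division UMIs. It had 1331 CPM of Ly6c2 and 1439 of Plac8, beside genes of granule proteins of immature neutrophils, with 821 CPM of Ngp, and of progenitors, with 261 CPM of Mpo and 191 of Elane. C1qa was at 1045 CPM and Apoe at 4946. SingleR called 28 of these cells monocytes, 16 macrophages and 8 neutrophils. Its markers come from more than 1 list, so it is not named either. It made up 2.47% of the class and was found in all 6 tumours, with 4 to 17 cells each.

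The last cluster, of 95 cells, was osteoclast-like: its first 10 genes included Ctsk, Acp5 and Atp6v0d2 of the osteoclast-type list, with Mmp9, Mt3 and Slc9b2. Ctsk, cathepsin K, digests bone collagen, Acp5 is the tartrate-resistant acid phosphatase by which osteoclasts are stained, and Atp6v0d2 is a subunit of the proton pump. It had 24090 CPM of Ctsk and 17698 of Acp5. Of its cells 27.4% held 2 division UMIs. The cluster was kept as 91 of its 95 cells at the coarser resolution and as all 95 at the finer one.

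These cells could be counted without clusters, as cells with at least 10 UMIs of both Ctsk and Acp5, a limit set after the values were seen. There were 81 in the CD45 libraries, of which 79 were annotated as other myeloid and 2 as macrophages, and all 79 lay in the Ctsk cluster. The counts were 6, 7, 22, 7, 1 and 38 in the order of the tumours, or 0.110% (0.0405 to 0.240), 0.189% (0.0761 to 0.390), 0.447% (0.280 to 0.676), 0.127% (0.0512 to 0.262), 0.0361% (0.0009 to 0.201) and 1.02% (0.722 to 1.39) of macrophages and other myeloid cells. Parental lay above all others, and the 1 cell of M was annotated as a macrophage, so the other myeloid class of M held none.

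The Total libraries, from the same tumours, held 55 such cells, 49 of them annotated as macrophages. They numbered 2, 1, 20, 4, 0 and 22 among the macrophages, or 0.0524%, 0.083%, 0.613% (0.375 to 0.945), 0.102%, 0% and 0.853% (0.535 to 1.29). In M, 0 of 2840 cells allows a share of up to 0.106% at a limit of 3 counts, or 0.130% by the exact interval. Parental and EM2 were the highest tumours in both kinds of library. EM2 was above EM1, with which it shared droplet barcodes, in both kinds, though the intervals of these 2 overlapped. With limits of 5 or 20 UMIs, Parental had 41 or 34 cells in the CD45 library and EM2 22 or 22.

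**Figure D4:**
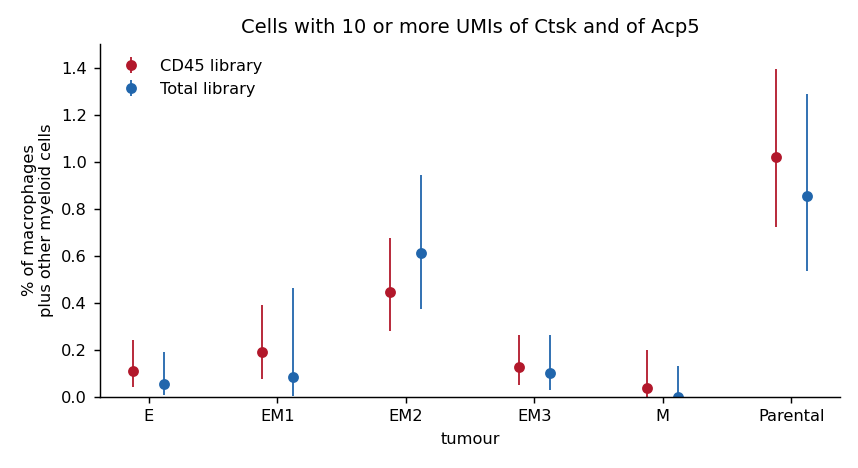
Cells with at least 10 UMIs of Ctsk and of Acp5 as a percent of macrophages plus other myeloid cells, by tumour, in the CD45 (red) and Total (blue) libraries, with exact 95% Clopper-Pearson intervals. Parental, at 1.02% and 0.853%, and EM2, at 0.447% and 0.613%, are the highest in both.

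The 79 other myeloid cells with both genes were pooled over tumours, which weights Parental and EM2 most. Ctsk and Acp5 chose the cells, so their levels are no finding. Ctsk had 28264 CPM in them (27862 to 28670) against 13.7 in the rest of the class and 13.1 in macrophages. Acp5 had 20524 against 198 and 246, and Mmp9, a gelatinase, 14611 against 32.7 and 50.2. The osteoclast fusion gene Ocstamp had 497 CPM against 22.6 in the rest, Siglec15 202 against 0.379, and the receptor gene Oscar 159 against 0.126. Nfatc1, the transcription factor that drives osteoclast formation, had 1994 CPM against 117, and Tnfrsf11a, the gene of RANK, 604 against 101.

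Some acid secretion genes were higher in them, with Tcirg1, a subunit of the proton pump, at 2012 CPM against 486 in the rest, the chloride exchanger Clcn7 at 383 against 115 and carbonic anhydrase Car2 at 272 against 5.30. The pump subunit gene Atp6v0a1 was lower, at 20.9 CPM against 70.7. Calcr, the calcitonin receptor, had 0 UMIs of 668351, which allows up to 4.49 CPM at the limit of 3 counts. Macrophage genes were low: C1qa had 331 CPM against 5882, Mrc1 44.9 against 1101 and H2-Aa 470 against 6148. Csf1r was at 1879. Collagen gene Col1a1, fibroblast gene Dcn and the epithelial tumour genes Epcam and Krt8 had 1.5 CPM each. These few genes do not speak for all fibroblast or tumour transcripts in the Ctsk-rich cells. The part of these cells in the class totals was measured: without them 105 genes were higher than in macrophages, 100 of them among the 102, and 3 were lower. These 3 were Inhba, Sdc1 and Chst11, while F10 was no longer called, with log2 ratios of -1.61 to -0.96.

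Other myeloid cells were also compared between tumours, beside the macrophages of each. Of 4959 genes with at least 50 CPM in any tumour, 611 (12.3%) had a range of at least 1 on the log2(CPM + 10) scale. The 8 widest were Ctsk, Inhba, Mmp9, Cxcl9, Mt3, Chil3, Serpina3g and Areg. Of these, Ctsk, Mmp9 and Mt3 were led by Parental and lowest in M, and belong to the osteoclast-like cells. Mt3 had 7.7, 27.7, 126, 31.9, 0 and 236 CPM in other myeloid cells and 0.635, 2, 1.72, 1.86, 1.68 and 1.68 in macrophages.

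Inhba, with the levels given above, and Chil3 and Areg were highest in E and lowest in M. Chil3, a chitinase-like secreted protein, had 191, 0.38, 1.74, 42.4, 0 and 1.03 CPM in other myeloid cells and 214, 5.9, 12, 45.2, 27.3 and 16.9 in macrophages. Areg, an EGF receptor ligand, had 189, 31.1, 37.7, 95.6, 2.6 and 56.3 against 204, 47.7, 66.8, 77, 20.6 and 71.8. E was the highest in macrophages too for all 3 genes. EM3 was second for each in other myeloid cells, and E and EM3 are libraries that shared droplet barcodes, from which the tumours cannot be told apart here.

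Cxcl9 and Serpina3g were highest in EM1 in both classes. Cxcl9, an interferon-gamma-induced chemokine for T cells, had 202, 507, 390, 219, 30.6 and 5.17 CPM in other myeloid cells and 180, 547, 480, 194, 30.7 and 42.1 in macrophages. Serpina3g, a serine protease inhibitor, had 97.1, 221, 113, 59.3, 28 and 3.1 against 67.6, 219, 121, 65.5, 13 and 7.99. Parental was the lowest in other myeloid cells for both. H2-Aa was highest in EM1 and lowest in Parental in both classes, while H2-Ab1 and H2-DMa were highest in E in other myeloid cells. EM2 was second for Cxcl9 and Serpina3g in other myeloid cells, and EM1 and EM2 are the other pair that shared droplet barcodes.

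**Figure D5:**
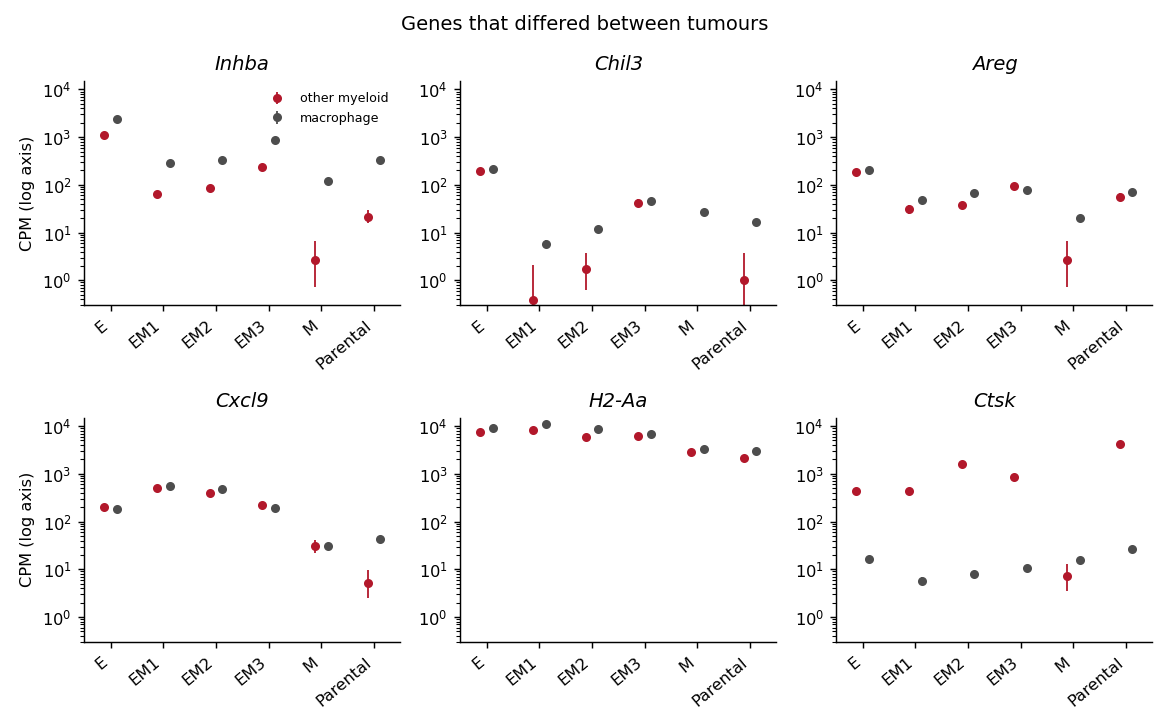
Level of 6 genes in CPM (log axis) by tumour in other myeloid cells (red) and macrophages (grey), with exact 95% Poisson intervals. A value of 0 (Chil3 in other myeloid cells of M) is not drawn and intervals are cut at the lower edge; Inhba, Chil3 and Areg are highest in E in both classes, while Ctsk is high in the other myeloid cells of all tumours but M.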

How the data were processed

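Single cells of 6 tumours were measured in 12 libraries. The deposited tables give unnormalized UMI counts for each gene in each cell, with 18574 genes in the CD45 tables. The authors' cell tables, deposited with them, give UMI counts per cell, the mitochondrial percent, the same as a fraction, a ratio of log10 genes to log10 UMIs that was not used, and the annotation. Per the submitters' processing notes, Cell Ranger and mm10 were used; other settings are not given in the sources used here. Per the labels' protocols, cells were fixed with a fixed-RNA kit and libraries were made with 3′ reagents; which chemistry gave the counts is not settled by these sources, and its part in the levels of histone genes was not tested.

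Doublets were called per library by simulating 2 pairs per cell at an expected 6%, with 1 score limit for all libraries, and removed (1.59% to 3.92% of cells). Counts were summed per class and tumour and scaled to CPM. Log2 ratios used a pseudocount of 10 CPM. A gene was called where the ratio was at least 1, or -1 or less, in all 6 tumours with at least 50 CPM in the higher class. Intervals are exact (Poisson, or Clopper-Pearson for shares) and cover counting error only; a count of 0 was taken to allow 3. With 1 tumour per group, and classes annotated on the same cells, no test was made. Cells were clustered at resolution 0.5 on 2000 genes, 30 components and 20 neighbours. Named genes were the 12 with the largest median ratio in each direction, the 8 with the widest range between tumours, Ly6c2, Ccr2, Plac8 and members of the lists; the genes of the Ctsk-rich and the shallow cells, and other called genes, were chosen after their values were seen, as were the motifs, the limit of 2000 UMIs and the Ctsk and Acp5 limits. The members and lists were chosen with earlier results of these data known. The summation was tested on simulated data. Python 3.11.15, numpy 2.4.6, scipy 1.17.1, pandas 2.3.3, scanpy 1.11.5, scikit-learn 1.9.0, leidenalg 0.10.2 and igraph 0.11.9 were used. Alternatives covered doublets, genes per cell, pseudocount, minimum level, depth and each tumour left out. Some listed genes are not reported here.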

Additional observations from a re-analysis of the deposited data

Results flagged for a closer look

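For 2 genes the ratio of other myeloid cells to macrophages lay past the fold limit in opposite directions in different tumours; with 1 tumour per group the difference was not tested. S100a8, a granulocyte alarmin, had a log2 ratio of 1.39 in M, with 1158 CPM in other myeloid cells and 436 in macrophages. In EM3 the ratio was -1.02, with 333 and 686. With each cell counted equally the lowest ratio over the tumours was -0.06 and after thinning -0.43, so the lower call holds only for summed counts among these. The cluster of 54 cells led by Ly6c2 had 6634 CPM of S100a8 and held 17 cells of M and 6 of EM3. Its part in these ratios was not tested. Mmp9, a gelatinase high in the osteoclast-like cells, had a log2 ratio of 4.29 in EM2, with 706 CPM against 26.6, and of -1.16 in M, with 43.6 against 109; the lowest ratio was -0.54 after thinning and -0.41 with each cell counted equally, and without the Ctsk-rich cells the highest was 0.60, none past the limit.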

How the results depend on the processing

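The 102 genes higher in other myeloid cells became 50 with a pseudocount of 50 CPM, 232 with a minimum of 10 CPM or none, and 42 among cells under 2000 UMIs; leaving out 1 tumour gave 102 to 115. The 2 lower genes became 5 with a pseudocount of 1 CPM, 1 with 50 CPM, 12 after thinning, 13 with the mean over cells, 1 among cells of at least 2000 UMIs and 109 under 2000, where the cause was not tested; leaving out 1 tumour gave 2 to 5, with 5 without EM2. The share of CD45 cells counting all cells annotated Other Myeloid was 3.93% in E, 4.87% in EM1, 5.4% in EM2 and 5.31% in Parental; with a minimum of 650 genes per cell it was 4.94% in EM2, 4.63% in M and 5.03% in Parental. Of non-granulocytes it was 4.44%, 4.96%, 4.87%, 6.42%, 7.20% and 5.89%, and of macrophages and other myeloid cells 6.54%, 10.5%, 7.76%, 9.04%, 9.56% and 7.90%. For 81 named genes under 19 alternatives, 1342 values moved by less than the error and 197 by more, and no called gene changed sign. The cells under 2000 UMIs and those without Ctsk-rich cells, set after the data were seen, are among these; without the Ctsk-rich cells 1 of the 2 lower genes, F10, was no longer called. No paired analysis was possible because the groups, of 1 tumour each, share no replicates; the classes could be paired within tumours, as their ratios are, but were not tested, since an annotation of the same cells defines them. The Total libraries were not run as an alternative, since their annotation has no such class. Depth limits the shallow cells, with 682998 UMIs in all, and the Ctsk-rich cells, with 668351.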
